A study of Mus musculus with 9 samples.

Results

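The nuclear genes for subunits of the respiratory complexes II to V were examined in RNA of extracellular vesicles (EVs), membrane-bound particles shed by cells that enclose RNA and protein. The list held 39 genes, chosen by name: 4 of complex II, 10 of complex III with its mobile carrier cytochrome c, 10 of complex IV and 15 of complex V. Each was read through the probe with the highest mean signal among the array probes that carry its name, out of 36413 gene names on the array. The EVs came from mouse embryonic fibroblasts (MEFs), connective tissue cells taken from embryos, and total EV RNA was hybridised to 1-colour Agilent gene expression arrays. One group, PBS, held 5 arrays of EVs from MEFs treated with PBS, a buffered salt solution, and the other, Control, held 4 arrays of EVs from control MEFs. The labels give no mouse strain, embryo age or time for either group, and whether the PBS cells were also electroporated, as in the transfection used elsewhere in the study, is not stated. They name no separate cultures either, so the p-values below rest on a spread between samples that may be technical only.

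Respiratory complexes sit in the inner mitochondrial membrane. Complex II, succinate dehydrogenase, takes electrons from succinate in the citric acid cycle. Complex III passes electrons to cytochrome c, complex IV passes them from cytochrome c to oxygen, and complex V, ATP synthase, makes ATP from the proton gradient across that membrane, to which complexes III and IV contribute. All subunits of complex II are nuclear-encoded, whereas complexes III, IV and V are assembled from nuclear-encoded subunits imported from the cytosol and a few core subunits made inside the mitochondrion from its own DNA. Nuclear transcription factors, among them NRF1, YY1 and the ETS family member GABP, are known to act on many of the nuclear genes.

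A RefSeq promoter of 300 bases, made of 250 bases before the gene's start and the first 50 bases of the gene, was found for 31 members, and 8 members had none in the table. CCGGAAG, the core that ETS factors such as GABP bind, was searched for on both strands. It was in 12 of the 31 (38.7%) against 8.86% of the 32851 RefSeq promoters of this length, in Sdhb, Sdhd, Uqcrh, Uqcr11, Cox6a1, Cox6b1, Cox8a, Atp5e, Atp5h, Atp5j, Atp5k and Atp5l. Of these 12 members 5 were higher in PBS by the test described next, none was lower and 7 did not pass, where 31.6% of all genes tested were higher and 20.7% lower. These matches are letters in a window and were read as a description.

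The promoters of 4 of them, 1 from each complex, are shown. The motif lies before the start in all 4, of which Sdhd, Cox6b1 and Atp5h rose and Uqcr11 did not pass. Each is given as the 250 bases before the gene's start, 5′ to 3′ on the gene's strand, from RefSeq on GRCm38.p6, with the match on either strand in capitals. They lie at chr9:50603850-50604099, chr10:80406822-80407071, chr7:30626115-30626364 and chr11:115419920-115420169, all on the minus strand.
Sdhd: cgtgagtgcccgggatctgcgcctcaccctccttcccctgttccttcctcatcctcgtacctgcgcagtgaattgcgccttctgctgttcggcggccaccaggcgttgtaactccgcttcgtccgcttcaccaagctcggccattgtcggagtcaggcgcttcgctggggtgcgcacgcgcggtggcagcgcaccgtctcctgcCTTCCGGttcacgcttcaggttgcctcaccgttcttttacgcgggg
Uqcr11: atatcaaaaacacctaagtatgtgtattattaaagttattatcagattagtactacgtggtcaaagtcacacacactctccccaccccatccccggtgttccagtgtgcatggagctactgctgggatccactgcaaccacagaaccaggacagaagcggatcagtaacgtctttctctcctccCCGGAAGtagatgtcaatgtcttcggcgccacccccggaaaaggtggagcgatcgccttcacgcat
Cox6b1: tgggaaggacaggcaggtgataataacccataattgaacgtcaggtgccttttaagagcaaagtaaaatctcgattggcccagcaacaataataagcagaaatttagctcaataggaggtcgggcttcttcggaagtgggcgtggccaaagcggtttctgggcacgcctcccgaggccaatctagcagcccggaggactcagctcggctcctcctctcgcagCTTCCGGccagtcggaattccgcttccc
Atp5h: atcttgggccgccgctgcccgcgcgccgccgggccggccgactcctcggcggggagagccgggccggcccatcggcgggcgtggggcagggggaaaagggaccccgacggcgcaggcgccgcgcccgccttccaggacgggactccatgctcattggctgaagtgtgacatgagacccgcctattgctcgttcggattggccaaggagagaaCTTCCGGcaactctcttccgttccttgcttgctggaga
The first base of the match lies 46 bases before the start in Sdhd, 66 in Uqcr11, 28 in Cox6b1 and 38 in Atp5h. Uqcr11 holds the motif as spelled, and the others hold it on the opposite strand, as CTTCCGG. Matches nearer before the start than in these 4 lay in members that did not pass, Cox8a (5 bases), Uqcrh (10) and Cox6a1 (16).

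Levels are given as log2 of the background-corrected signal minus the 75th percentile of the probes detected on all 9 arrays, so 0 is that percentile on the same array and a step of 1 is a factor of 2. Differences are PBS minus Control on this log2 scale, with standard errors (SE) and p-values from limma, adjusted by Benjamini-Hochberg over all 14284 genes tested. All 39 members passed the filter, a probe well above background on at least 4 arrays, and 37 were well above background on all 9. Sdha and Atp5o were well above it on all 5 PBS arrays and on 3 of the 4 Control arrays. The arrays lay on 2 slides, with PBS replicates 1 to 3 beside Control 1 and 2 on slide 1, and PBS replicates 4 and 5 beside Control 3 and 4 on slide 2. Between 16491 and 19233 probes were well above background on the PBS arrays and between 12584 and 15553 on the Control arrays, which did not overlap, and the part of this in the results below was not tested. Of 12 fibroblast markers, 8 were well above background on all arrays, including Col1a1, Fn1, Vim and Dcn, while Thy1 was above it on none. Their summed level ran from 25.6 to 27.5 times the array's 75th percentile in PBS and from 12.9 to 21.1 in Control. This sum weighs the brightest markers most and does not give the direction of the list. Of the 10 tested, 3 were higher in PBS (Dcn, Lum and S100a4) and 3 lower (Col1a1, Fn1 and Pdgfra). The other 4 did not pass, and the median difference was -0.38. Of all genes tested, 31.6% were higher and 20.7% lower. Lum was above background on 4 PBS arrays and 0 Control arrays. Markers of other cell types were present in part. Of 8 macrophage and leukocyte markers, Itgam (-1.30, lower in PBS) and Cd14 (2.21, higher) were well above background on all arrays and Csf1r (-2.70, lower) on 4 PBS and 4 Control arrays, while Ptprc was above it on 1 PBS array and Cd68, Adgre1, Fcgr1 and Lyz2 on none. Their summed level was 1.09 to 2.09 in PBS and 2.11 to 3.12 in Control. Of 4 endothelial markers, Kdr (-1.42, lower) was well above background on all arrays and Pecam1 (-1.81, lower) on 1 PBS and 4 Control arrays, while Cdh5 and Tek were on none, and the sums were 0.0996 to 0.137 in PBS and 0.239 to 0.411 in Control. Of 4 epithelial markers, Krt8 was above background on 1 PBS array and Epcam, Krt18 and Cdh1 on none, and of 7 muscle markers none was above it on all arrays and none of the 3 tested passed. The part of these cell types in the results was not tested. In a bulk sample of vesicles, fewer vesicles carrying a transcript and fewer copies in each vesicle cannot be told apart.

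More members were higher than lower in PBS. In all, 26 of the 39 passed the test, where 52.3% of all genes tested did. Of these 21 (53.8% of the members) were higher in PBS, against 31.6% of all genes, and 5 (12.8%) were lower, against 20.7%. The median difference over the 39 was 0.52, beside -0.016 over all genes tested. PBS and Control arrays did not overlap for 27 members (69.2%), against 47.0% of all genes tested. Nearly all members were well above background on all arrays, unlike the genes tested. With a filter of well above background on all arrays, 25 of 37 members passed, 20 higher and 5 lower. Of 7168 genes left by that filter 4480 passed, 2363 higher (33.0%) and 2117 lower. Overlap was not counted with that filter. Complex II had all 4 subunits higher with a median of 0.84, complex III 6 higher and 1 lower of 10 with a median of 0.60, complex IV 4 higher and 1 lower of 10 with a median of 0.38, and complex V 7 higher and 3 lower of 15 with a median of 0.32. Each of the 26 that passed kept its sign on both slides when slides were fitted alone, and the member median was 0.31 on slide 1 and 0.62 on slide 2. Without Control replicates 3 and 4, which had the fewest probes above background, 18 members were higher and 5 lower. Of the 14284 genes tested 4168 (29.2%) were then higher and 2961 lower. The member median was 0.32 beside 0.14 over all genes tested.

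**Figure D1:**
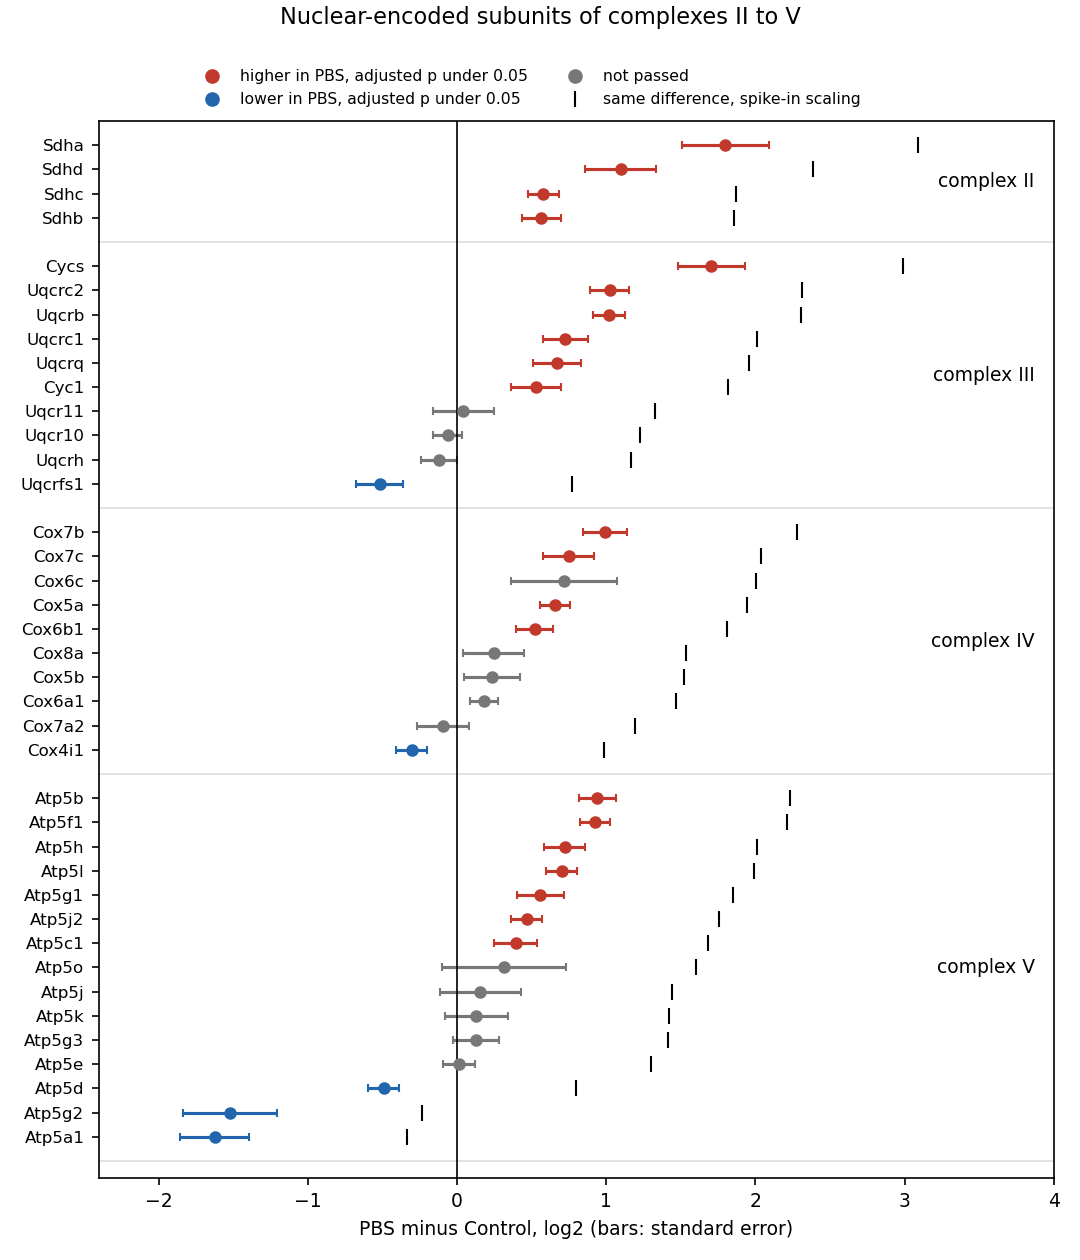
The horizontal axis gives the PBS minus Control difference (log2) of each of the 39 subunits, grouped by complex, with bars for the SE and colours for the test result (5 PBS and 4 Control arrays). Circles right of 0 outnumber those left of it, and black ticks give the same difference under spike-in scaling, where all but Atp5g2 and Atp5a1 lie above 0.

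How many members count as lower rests on the scaling. Levels were also scaled to the mean of 8 probes for spike-in RNAs, on the untested assumption that every sample received them alike. The PBS minus Control difference of every gene then grew by 1.29, and the median over all genes tested became 1.27. On that scale 37 members were higher and none was lower, beside 62.7% of all genes higher, and Uqcrfs1, Cox4i1 and Atp5d turned from lower to higher. Atp5a1 at -0.34 and Atp5g2 at -0.23 remained below 0 but no longer passed. Since this scaling moves every gene alike, the distance between the median of the members and that of all genes, 0.54, could not change. Directions below are therefore relative to the detected probes of each array unless the scale is named.

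Complex II was higher in all its subunits. Sdha encodes the flavoprotein that oxidises succinate, and its level was -1.61, -1.58, -1.77, -1.74 and -1.87 on the 5 PBS arrays and -3.00, -2.91, -3.79 and -4.34 on the 4 Control arrays. The groups did not overlap, and Control replicates 3 and 4, both on slide 2, were the lowest. The difference was 1.80 (SE 0.29, limma adjusted p = 0.000959), a 3.48-fold rise and the largest of any member on this scaling. With normexp background correction, an alternative that models the background of each array, it was 0.87, below the 1.79 of Cycs, and on slide 1 alone 1.31, below the 1.49 of Cycs. Sdhc, one of the membrane anchors that hold the complex and bind ubiquinone, stood at -0.62, -0.62, -0.43, -0.48 and -0.42 in PBS and at -1.03, -1.01, -1.14 and -1.20 in Control. Its arrays lay close together within each group, so a smaller difference of 0.58 (SE 0.11, limma adjusted p = 0.00186) passed. Sdhd, the other anchor, was read at 0.75, 0.79, -0.15, 0.84 and 0.95 in PBS and -0.36, -0.25, -0.73 and -0.52 in Control. PBS replicate 3 was far below the other PBS arrays yet above every Control array. The Sdhd difference was 1.10 (SE 0.24, limma adjusted p = 0.0045) with that array and 1.29 (SE 0.14) without it. Sdhb, the iron-sulphur subunit, rose by 0.57 (SE 0.13, limma adjusted p = 0.00572), while its second probe gave 0.24, which did not pass (adjusted p = 0.149).

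In complex III the core proteins and the carrier were higher, the Rieske protein was lower and of the small subunits Uqcrb and Uqcrq were higher while Uqcrh, Uqcr10 and Uqcr11 did not pass. Cycs encodes somatic cytochrome c, the soluble carrier between complexes III and IV. It stood at 1.60, 1.36, 1.69, 1.12 and 1.31 in PBS and 0.24, -0.12, -0.74 and -0.54 in Control, a difference of 1.70 (SE 0.22, limma adjusted p = 0.000299) or 3.26-fold. A second Cycs probe gave 1.69, and the third was below background on all arrays. Uqcrb, a small subunit near the ubiquinone site, had 0.89, 0.87, 0.97, 0.79 and 0.98 in PBS and 0.029, -0.098, -0.14 and -0.27 in Control. The 9 arrays split cleanly, with a difference of 1.02 (SE 0.11, limma adjusted p = 9.03e-05), and its 3 probes ran from 1.02 to 1.12.

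Uqcrc2, a core protein of complex III, was at -0.10, -0.074, -0.056, -0.04 and -0.013 in PBS and at -0.88, -0.87, -1.29 and -1.28 in Control. The PBS arrays lay close together and all above Control, with a difference of 1.02 (SE 0.13, limma adjusted p = 0.000273). Its partner core protein Uqcrc1 rose by 0.73 (SE 0.15), the small subunit Uqcrq by 0.67 (SE 0.16) and cytochrome c1, Cyc1, by 0.53 (SE 0.17, limma adjusted p = 0.0287). Cyc1 passed under only 14 of 25 alternative settings. Uqcrfs1 encodes the Rieske iron-sulphur protein, which accepts an electron from ubiquinol. Its levels were 0.14, 0.14, 0.046, -0.033 and 0.19 in PBS and 0.86, 0.88, 0.46 and 0.25 in Control, so every PBS array was below every Control array. The difference of -0.52 (SE 0.16, limma adjusted p = 0.0225) became 0.77 under spike-in scaling. The hinge protein Uqcrh at -0.12, Uqcr10 at -0.063 and Uqcr11 at 0.042 did not pass, and in each of them PBS and Control arrays overlapped.

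**Figure D2:**
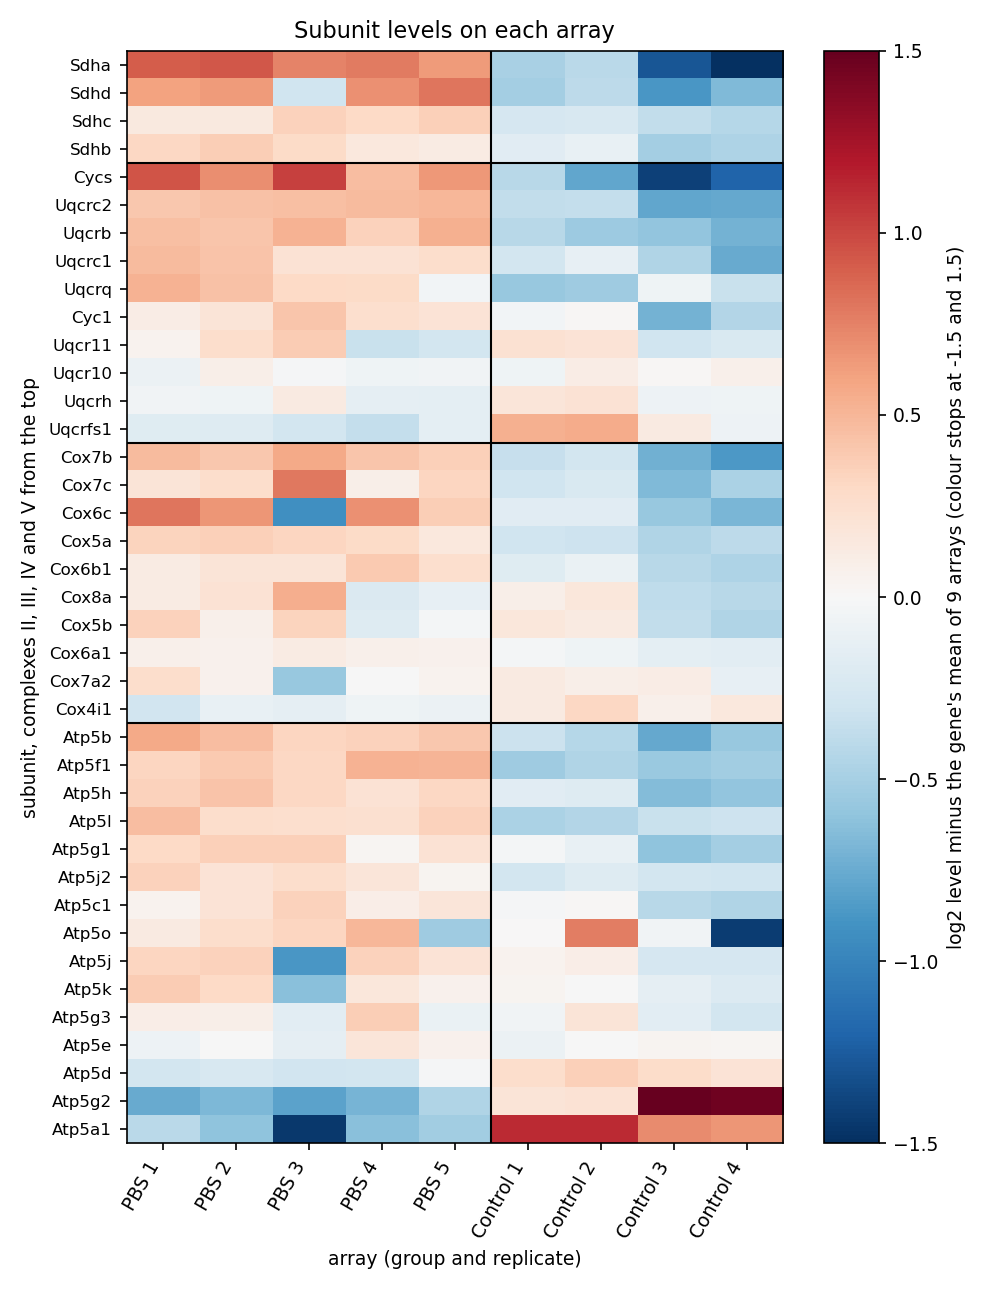
Colours give each subunit's log2 level on each of the 9 arrays minus its mean over the 9 arrays, with rows grouped by complex and ordered by difference. Most rows are red on the 5 PBS arrays and blue on the 4 Control arrays, the Atp5a1, Atp5g2, Atp5d, Cox4i1 and Uqcrfs1 rows run the other way on this scaling (Atp5d, Cox4i1 and Uqcrfs1 turn under spike-in scaling), and PBS 3 stands low for Sdhd, Cox6c, Cox7a2, Atp5j, Atp5k and Atp5a1.

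In complex IV every difference was under 1 log2 unit in size. Cox7b, a small membrane subunit, stood at 2.37, 2.30, 2.46, 2.31 and 2.25 in PBS and 1.56, 1.62, 1.17 and 1.03 in Control. Its groups lay well apart, with a difference of 0.99 (SE 0.15, limma adjusted p = 0.00066). Cox5a, which faces the matrix, was at 2.25, 2.27, 2.23, 2.20 and 2.07 in PBS and at 1.62, 1.60, 1.46 and 1.52 in Control. The difference was 0.66 (SE 0.10, limma adjusted p = 0.000689) and nearly alike on slide 1 (0.64) and slide 2 (0.65). Cox7c, another small membrane subunit, was read at 0.13, 0.20, 0.73, 0.02 and 0.26 in PBS and -0.37, -0.30, -0.73 and -0.54 in Control, a difference of 0.75 (SE 0.17, limma adjusted p = 0.00605). Its other probes gave 0.20 and -0.98 and neither passed, and the mean of the 3 probes gave -0.011 (adjusted p = 0.98).

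Cox6b1, on the outer face of complex IV, rose by 0.52 (SE 0.12, limma adjusted p = 0.00707), but with normexp it gave 0.15 (adjusted p = 0.445, limma) and the call was lost under 6 of 25 alternatives. Cox4i1, the ubiquitous form of the largest nuclear subunit, was at 2.55, 2.74, 2.71, 2.78 and 2.76 in PBS and at 2.97, 3.15, 2.92 and 3.00 in Control. The lowest Control array exceeded the highest PBS array by little, and the difference of -0.30 (SE 0.11, limma adjusted p = 0.0392) passed under only 9 of 25 alternatives and was 0.98 under spike-in scaling. Cox5b (0.23), Cox6a1 (0.18), Cox7a2 (-0.094) and Cox8a (0.25) did not pass. Cox6a1 was nonetheless higher on every PBS array than on every Control array, with levels from 3.29 to 3.35 against 3.07 to 3.20. Cox6c gave 0.72 (SE 0.36, limma adjusted p = 0.124) with PBS replicate 3 at 0.53 and the other PBS arrays from 1.82 to 2.25, and without that array it gave 1.03 (SE 0.17, adjusted p = 0.00216).

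ATP synthase moved in both directions, and the paired alpha and beta subunits of its head moved apart. Atp5a1 and Atp5b encode the alpha and beta subunits, which alternate in the catalytic head. Atp5a1 was at 1.08, 0.88, 0.04, 0.85 and 0.96 in PBS and at 2.60, 2.61, 2.19 and 2.15 in Control, with PBS replicate 3 lowest and no overlap. On this scaling with all arrays this was the largest fall of any member, -1.62 (SE 0.23, limma adjusted p = 0.000489). The Atp5a1 difference was -1.44 (SE 0.15) without PBS replicate 3, where Atp5g2 gave -1.49. On slide 2 alone it was -1.26, where Atp5g2 gave -2.06. Under spike-in scaling Atp5a1 was at -0.34 and did not pass. Atp5b was at 2.55, 2.44, 2.30, 2.32 and 2.38 in PBS and at 1.65, 1.55, 1.21 and 1.42 in Control, again without overlap but in the opposite direction, 0.94 (SE 0.13, limma adjusted p = 0.000336). The log ratio of Atp5b to Atp5a1 signal within an array, on which no scaling of the array acts, was 2.57 higher in PBS. This pair was chosen after its values were seen, was read through 1 probe per gene and was given no test.

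Among the other head and stalk subunits, Atp5c1 (gamma, the rotating shaft) rose by 0.39 (SE 0.14, limma adjusted p = 0.0474) and lost the call under 14 of 25 alternatives. Atp5d (delta, also on the shaft) was at 0.41, 0.44, 0.40, 0.41 and 0.67 in PBS and 0.95, 1.04, 0.96 and 0.89 in Control. It was lower on every PBS array, -0.49 (SE 0.11, limma adjusted p = 0.00436), but 0.80 under spike-in scaling, and with normexp it gave -0.24 (adjusted p = 0.286, limma). Atp5e (epsilon, the third shaft subunit) was at 0.013 and did not pass. Atp5f1, the b subunit of the peripheral stalk that is called Atp5pb in RefSeq, stood at 0.11, 0.19, 0.10, 0.31 and 0.30 in PBS and -0.74, -0.65, -0.76 and -0.73 in Control. Its difference was 0.92 (SE 0.10, limma adjusted p = 0.000113), with 0.83 on slide 1 and 1.05 on slide 2. A second Atp5f1 probe gave 1.27 (SE 0.30). Of the other stalk subunits, Atp5h (d) rose by 0.72 (SE 0.14, limma adjusted p = 0.00227), while Atp5j (F6) at 0.16 and Atp5o (the subunit that confers oligomycin sensitivity) at 0.32 did not pass. Without PBS replicate 3, Atp5j gave 0.39 (SE 0.13, adjusted p = 0.0372).

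The membrane subunits Atp5j2 (f) and Atp5l (g) were higher and Atp5k (e) did not pass at 0.13 (SE 0.21, limma adjusted p = 0.617). Atp5j2 rose by 0.47 (SE 0.10, limma adjusted p = 0.00518). Atp5l was at 2.95, 2.74, 2.73, 2.73 and 2.82 in PBS and 2.01, 2.04, 2.15 and 2.17 in Control, a difference of 0.70 (SE 0.10, limma adjusted p = 0.000569). The array names 5 probes Atp5l, and 3 of them share a stretch with a few base changes, shown here as 30 bases with the varying positions in capitals.
A_55_P2000909: tgttAttggaccatgtgtaaCAGgacTgct
A_55_P2024021: tgttCttggaccatgtgtaaAGAgacTgct
A_55_P2026669: tgttTttggaccatgtgtaaCGGgacCgct
The first, placed by the array annotation at chr9:44721374-44721433 (mm9, minus strand), is the probe used. Counted from the 5′ end of the stretch, the second differs from it by A5C, C21A, A22G and G23A and the third by A5T, A22G and T27C. They gave differences of 0.53 for the second and 0.78 for the third, neither of which passed (adjusted p = 0.214 and 0.15), with a wider spread between arrays than the probe used. All 5 probes lay above 0, from 0.53 to 0.88. Near-identical copies of a gene can share such probes, so Atp5l is read here with that uncertainty.

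The 3 genes for subunit c were read in 3 ways. Atp5g1 was at 1.90, 1.95, 1.95, 1.62 and 1.81 in PBS and 1.57, 1.49, 0.99 and 1.09 in Control, and rose by 0.56 (SE 0.16, limma adjusted p = 0.0162). Atp5g3 was at 1.94, 1.93, 1.68, 2.21 and 1.74 in PBS and 1.79, 2.04, 1.69 and 1.56 in Control, with overlapping groups, and did not pass at 0.13 (SE 0.15, limma adjusted p = 0.494). Atp5g2 was at 3.54, 3.63, 3.50, 3.61 and 3.86 in PBS and 4.50, 4.52, 5.82 and 5.76 in Control, lower on every PBS array by -1.52 (SE 0.32, limma adjusted p = 0.00364). Its Control arrays split by slide, and the difference was -0.95 on slide 1 and -2.06 on slide 2. A second Atp5g2 probe abuts the first on chromosome 15, and the facing 30 bases of both are shown because they disagreed.
A_55_P2081483 (its last bases): tgttccttttcctgtaactccccaagaagt
A_55_P2081482 (its first bases): ctggggaaagtgcttggctcagggtttgac
The first lies at chr15:102493359-102493418 and the second at chr15:102493299-102493358 (mm9, minus strand). The second probe stood at 2.88, 2.87, 2.95, 2.53 and 2.41 in PBS and 3.36, 3.34, 2.86 and 2.86 in Control, and its difference of -0.37 did not pass (adjusted p = 0.116). Control replicates 3 and 4 were the highest arrays on the first probe and below Control replicates 1 and 2 on the second, so the size of the Atp5g2 fall depends on the probe.

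**Figure D3:**
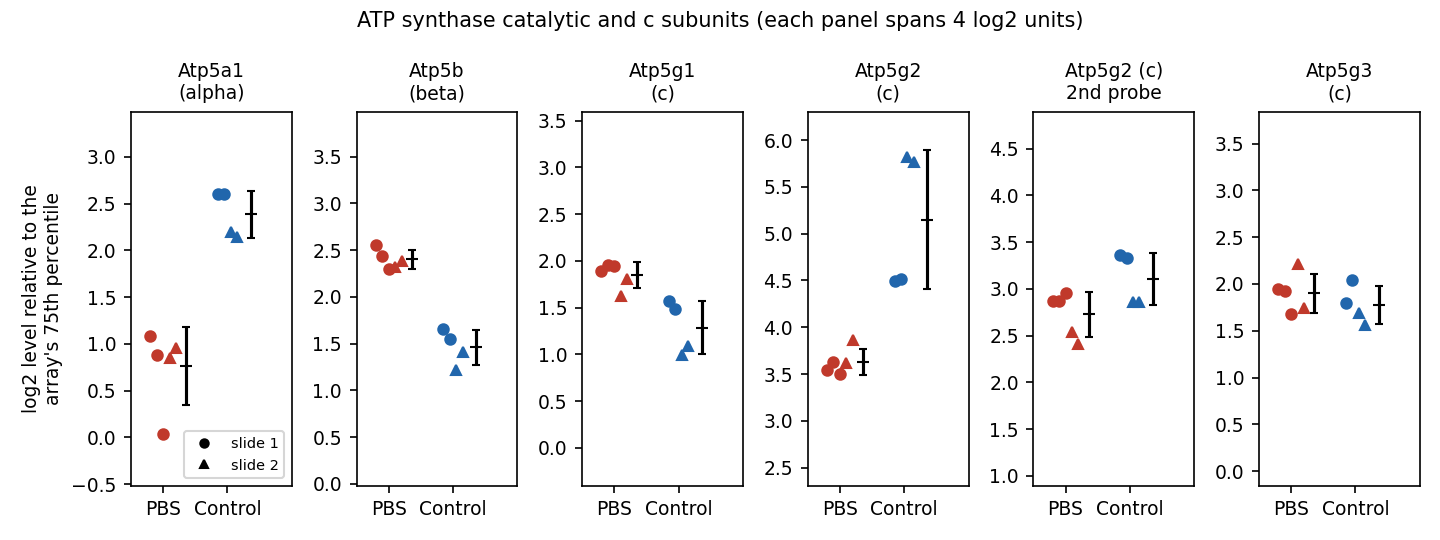
Each panel gives the log2 level of 1 probe on each array (circles slide 1, triangles slide 2, bars mean and SD of 5 PBS and 4 Control arrays), with the same span of 4 on every vertical axis. Atp5a1 is lower and Atp5b higher in PBS, and the Control values of Atp5g2 split by slide on the first probe only upward, to 5.76 and 5.82.

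Over the whole list, 16 members had more than 1 probe, each with at least 2 that were detected. In 15 the detected probes had 1 sign and in 1, Cox7c, they differed in sign. The spread among PBS arrays was small, with a median SD of 0.115 over the members against 0.274 over all genes tested, and the Control SDs were 0.202 and 0.434. Of the members 37 of 39 were well above background on all arrays, against 7168 of the 14284 genes tested. The part of this in the spread was not tested. PBS replicate 3 was the lowest PBS array by a wide gap for Sdhd, Cox6c, Cox7a2, Atp5a1, Atp5j and Atp5k, members of all these complexes but complex III.

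The mitochondrially encoded subunits of complexes III to V were lower in PBS. All 5 that the array names and that were tested passed: cytochrome b of complex III (CYTB, -2.64, SE 0.19), the catalytic core of complex IV (COX1, -3.80, SE 0.33; COX2, -1.96, SE 0.15; and COX3, -2.43, SE 0.27) and ATP8 of complex V (-2.10, SE 0.18). COX1 ran from 2.63 to 3.97 on PBS arrays and from 6.74 to 7.13 on Control arrays, a 13.9-fold fall. CYTB ran from 2.74 to 3.26 in PBS and from 5.31 to 5.99 in Control. COX2 ranged from 4.54 to 4.77 against 6.27 to 6.94, COX3 from 2.37 to 3.65 against 5.41 to 5.86, and ATP8 from 1.19 to 1.91 against 3.28 to 3.80. No range overlapped. Under every setting tried, spike-in scaling included, these 5 were lower and passed, with the smallest size -0.67.

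**Figure D4:**
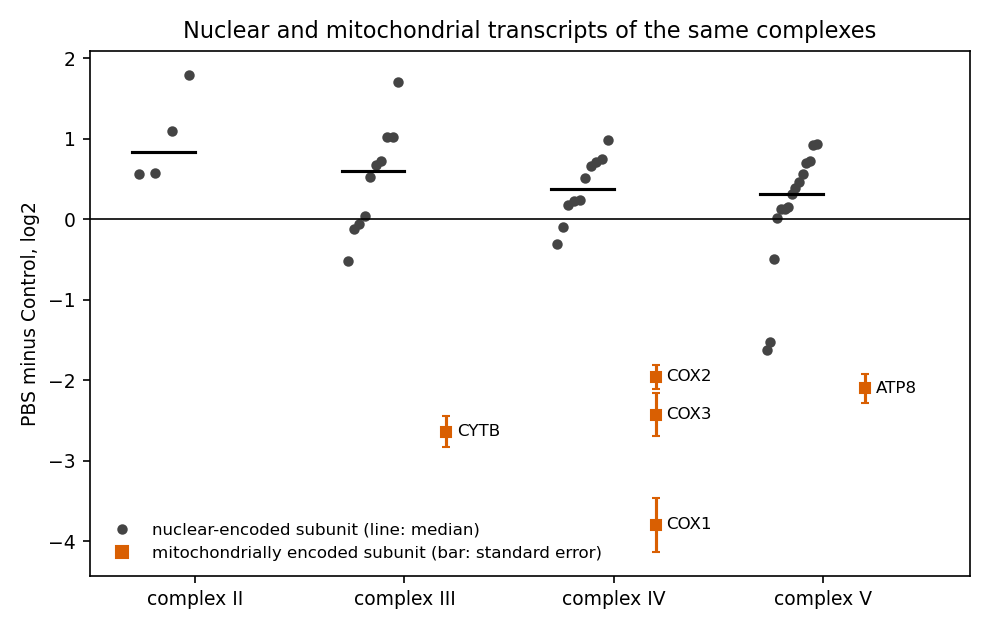
Grey circles give the PBS minus Control difference (log2) of each nuclear-encoded subunit by complex, with a line at the median, and orange squares that of each mitochondrially encoded subunit with its SE (5 PBS and 4 Control arrays). The squares lie between -3.80 and -1.96, below every nuclear-encoded subunit.

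Of 41 listed assembly factors and accessory proteins of the same complexes 31 were tested, and 14 were higher, 4 were lower and 13 did not pass, beside 31.6% of all genes higher and 20.7% lower. The counts were 29 higher and none lower under spike-in scaling, where 62.7% of all genes were higher, and 4 higher and 5 lower with normexp, where 13.5% were. With a filter of well above background on all arrays 7 were higher and 4 lower, since the others that were higher had Control arrays below background. Those higher with the smallest p were Tmem70, an ATP synthase assembly factor (1.55, SE 0.23), Cox11, which delivers copper to complex IV (1.86, SE 0.30), and Sdhaf4, which assists the flavoprotein of complex II (1.21, SE 0.21, named 1110058L19Rik on the array). Tmem70 and Cox11 were well above background on only 2 of 4 Control arrays, and with normexp the differences of Tmem70, Cox11 and Sdhaf4 were 0.43, 0.31 and 0.45. The lower ones included Oxa1l, which inserts proteins into the inner membrane (-1.04, SE 0.14), Hccs, which attaches haem to cytochromes c (-1.06, SE 0.15), and the complex III assembly factor Uqcc3 (-0.72, SE 0.12), and all 3 lay above 0 under spike-in scaling. Of the tissue-restricted subunit isoforms, which belong to muscle, lung or testis, 3 of 8 were tested and Cox4i2 was lower (-1.47, SE 0.32), on few detected arrays. Among the carriers and channels that serve ATP synthase, the adenine nucleotide carrier Slc25a4 (0.49) and the outer membrane channels Vdac1 (0.66) and Vdac3 (1.14) were higher and none was lower of 7 tested, beside the same 31.6% and 20.7%. None of these carriers passed with the replicate block or without the filter on dim probes, only 1 was higher with the percentile over all probes or without Control replicate 4, and 7 were higher under spike-in scaling.

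Transcription factors and coactivators that act on these genes were dim on the arrays. Of 12 listed, 10 were tested, and 6 were higher and none was lower, beside 31.6% and 20.7% of all genes. These 6 (Gabpa, Ppargc1a, Yy1, Tfb2m, Gabpb1 and Tfam) were above background on all 5 PBS arrays and on 0 to 3 Control arrays, so they passed the filter through the group in which they were high and the count supports nothing. With a filter of well above background on all arrays none was higher or lower, and with normexp none was higher and 1 was lower. Gabpa, the DNA-binding subunit of GABP, was well above background on all PBS arrays and on no Control array, so no size of its difference is given. The coactivator Ppargc1a (1.17, SE 0.19) and Yy1 (1.04, SE 0.18) were above background on 2 of 4 Control arrays. With normexp Gabpa, Ppargc1a and Yy1 turned to -0.38, -0.13 and -0.18. Nrf1 was detected on all arrays and did not pass (0.16, SE 0.31, limma adjusted p = 0.677).

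**Figure D5:**
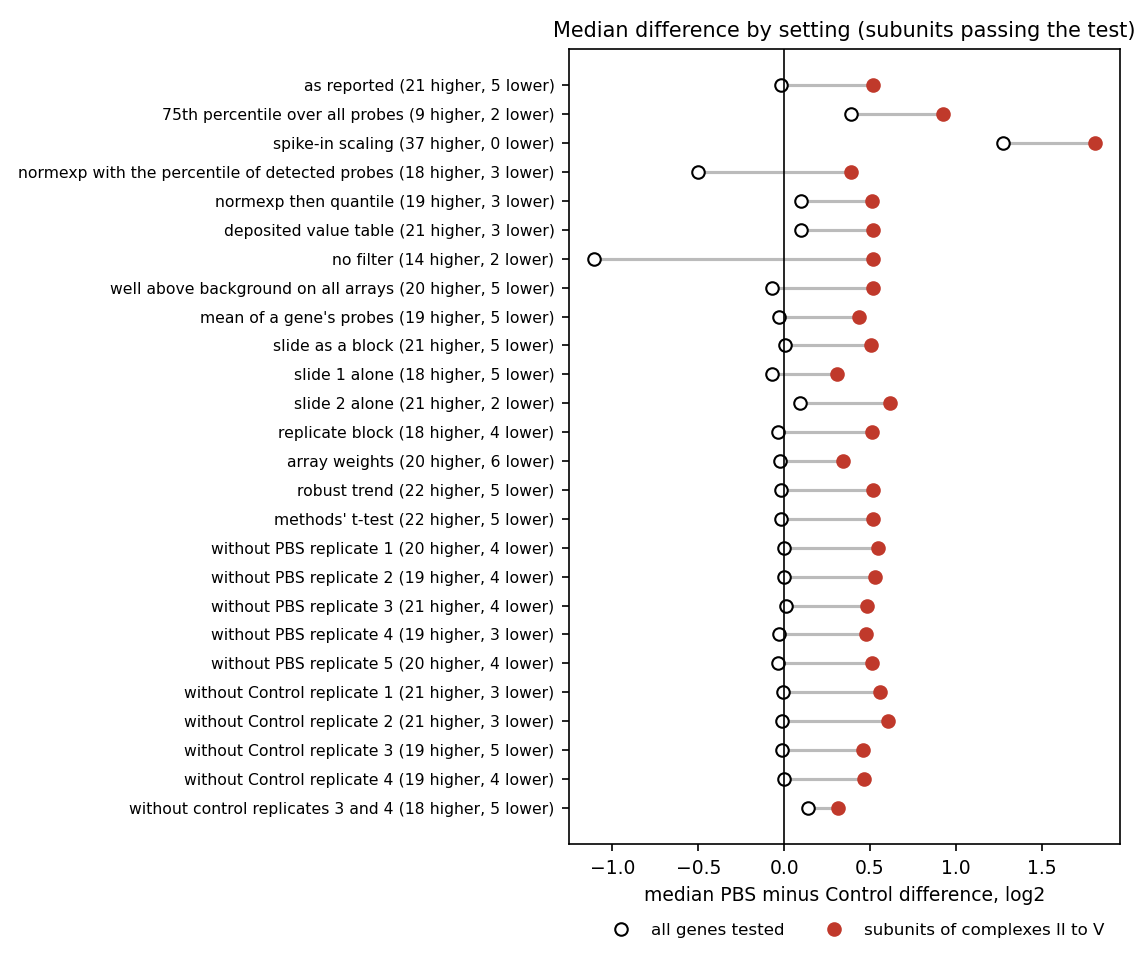
For each of 26 settings, the reported one first, a filled circle shows the median PBS minus Control difference (log2) of the subunits. These are 39, or 37 with the filter of well above background on all arrays. An open circle shows that of all genes tested, with the number of subunits passing in each direction beside the setting. The filled circle lies right of the open one in every setting, from 0.176 apart without Control replicates 3 and 4 to 1.62 without the filter on dim probes. The percentile over all probes, spike-in scaling, the robust trend and the t-test cannot change the reported distance.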

How the data were processed

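EV RNA of 5 PBS and 4 Control samples was hybridised to 1 array each. Per the file headers, the authors quantified the arrays with Agilent Feature Extraction 10.7.3.1, and the deposited files give linear intensity with background removed. The deposited value table holds log2 values (normalization not given in the sources used here, columns sharing a median of 5.97), and it served as an alternative. Control spots and outlier spots were left out, spots of a probe averaged, and log2 intensity was scaled to each array's 75th percentile over 8421 probes, those detected above background on every array. Genes whose probe was well above background on at least 4 arrays were tested with limma 3.58.1 in R 4.3.3 (lmFit, eBayes, two-sided, Benjamini-Hochberg, threshold 0.05), checked on simulated data. The number of arrays limits the precision. Figures were made with matplotlib 3.10.9.

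The members and lists were chosen with earlier results of these data known. Array values are named for, in each complex, up to 3 passing members of smallest p in each direction and for Atp5g1, Atp5g2 and Atp5g3, and from each list up to 3 passing genes of smallest p in each direction. Gene names are those of the array, whose accessions for all 39 members matched RefSeq. Probe coordinates are mm9, whose exon and UTR models were not used here. Alternatives covered scaling, background correction (normexp, offset 50), filter, probe choice, slide, replicate block, array weights and each array left out.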

Additional observations from a re-analysis of the deposited data

Results flagged for a closer look

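Among the 78 sets of arrays examined (39 members in PBS and in Control), 7 had an array far from the others by Dixon's criterion, where chance gives about 1 in 20. Of these 5 concerned PBS replicate 3. Sdhd stood at -0.15 on that array with the next PBS array at 0.75, Cox6c at 0.53 with the next at 1.82, Atp5a1 at 0.040 with the next at 0.85, and Atp5j at 0.024 with the next at 1.11. On the same array Cox6a1 was the highest, 3.35 with the next at 3.31, a gap that stands out among PBS arrays that lie close together. Atp5d was highest on PBS replicate 5 at 0.67 with the next at 0.44. Cox7a2 was lowest on Control replicate 4 at 1.34 with the next at 1.56. Without PBS replicate 3, Cox6c at 1.03 (adjusted p = 0.00216, limma) and Atp5j at 0.39 (adjusted p = 0.0372, limma) passed, and Cyc1, Cox4i1 and Atp5c1 no longer did.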

How the results depend on the processing

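Over 25 alternatives, 8 of the 26 members that passed (Sdha, Uqcrb, Uqcrc2, Cycs, Cox7b, Atp5b, Atp5f1 and Atp5l) kept sign and call wherever they were tested, and 22 kept their sign. The call was lost under 6 alternatives for Cox6b1, 4 for Sdhd and Atp5h, and 3 for Uqcrq, Atp5g1 and Atp5j2. Of the lower members, Uqcrfs1 and Atp5d each lost it under 6 and turned sign under 1 more. Uqcrfs1 did not pass on slide 2 alone (adjusted p = 0.196, limma). The median over all genes moved with the scaling, to 0.39 with the 75th percentile over all probes, 1.27 with spike-ins, -0.50 with normexp scaled to detected probes and 0.10 with normexp and quantile scaling or in the deposited value table. With the percentile over all probes, 11 of the 39 members passed, 9 higher and 2 lower, with a median of 0.92. There 4876 of the 14284 genes tested passed, 3527 higher (24.7%) and 1349 lower, so the members passed no more often than all genes. With spike-ins 37 were higher and 0 lower, with a median of 1.81. With normexp scaled to detected probes 18 were higher and 3 lower (13.5% of all genes higher), with normexp and quantile scaling 19 and 3 (26.2%), and with the deposited values 21 and 3 (26.1%). With no filter on dim probes 16 passed, 2 of them lower, beside 8870 of 36413 genes passing, 5265 of them lower. This put more genes in the fit and the adjustment. The member median was 0.31 on slide 1 alone and 0.32 without Control replicates 3 and 4 together. On slide 2 alone 2 members were lower, beside 4327 of the 14284 genes tested. Leaving out single arrays gave 22 to 25 members passing, 19 to 21 higher and 3 to 5 lower, with medians from 0.46 to 0.61. Of all genes tested 28.5% to 31.7% were then higher, and 2573 to 2912 of 14284 lower. The lower count of members was 3 without PBS replicate 4, Control replicate 1 or Control replicate 2. The direction of passing genes over the whole array also moved with the processing. As reported, 4511 of 7465 passing genes were higher, beside 8950 of 9658 with spike-ins. With normexp scaled to detected probes, 1934 of 6568 were higher and most were lower. The methods' t-test called 27 members, both unadjusted and after Benjamini-Hochberg, and limma called 26 unadjusted. After Benjamini-Hochberg that t-test called 7199 of the 14284 genes tested.

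A sign other than the reported one was found for Uqcrh (0.29), Uqcr10 (0.34), Cox4i1 (0.10) and Cox7a2 (0.31) with the percentile over all probes, for Uqcrfs1 (0.77), Uqcrh (1.17), Uqcr10 (1.23), Cox4i1 (0.98), Cox7a2 (1.19) and Atp5d (0.80) with spike-in scaling, and for Uqcr10 (0.16), Atp5j (-0.0014) and Atp5o (-0.35) with normexp scaled to detected probes. It was also found for Uqcrh (0.076), Uqcr10 (0.20) and Cox7a2 (0.0061) with normexp and quantile scaling, for Uqcrh (0.18), Uqcr10 (0.25) and Cox7a2 (0.045) in the deposited value table, and for Cox7c (-0.011) as the mean of a gene's probes. It was also found for Uqcr11 (-0.0097) with slide as a block, for Atp5e (-0.026), Atp5g3 (-0.066), Atp5j (-0.14), Atp5k (-0.0026) and Atp5o (-0.14) on slide 1 alone, and for Uqcr11 (-0.038) and Cox7a2 (0.028) on slide 2 alone. It was also found for Atp5e (-0.0028) with the replicate block, for Uqcr11 (-0.064) and Atp5o (-0.083) with array weights, and for Uqcr11 (-0.20), Cox5b (-0.047), Cox8a (-0.019), Atp5g3 (-0.016), Atp5j (-0.0063) and Atp5o (-0.25) without Control replicates 3 and 4 together. Leaving out single arrays gave both signs for Uqcr11 (-0.051 to 0.13), Cox7a2 (-0.17 to 0.039), Atp5e (-0.030 to 0.048) and Atp5o (-0.099 to 0.63). Besides the scaling cases named in the report, most of these values lay near 0 and did not pass. The cause was not tested.

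Replicate numbers are shared by PBS and Control. Same-numbered arrays deviated together for numbers 1, 2 and 4 (r = 0.70, 0.73 and 0.74 across genes), whose PBS and Control arrays shared a slide. They did not for number 3 (r = -0.54), whose PBS array lay on slide 1 and Control array on slide 2. Slide and pairing cannot be told apart by these correlations, and the numbers were not taken to pair the arrays. With the replicate block, 22 members passed, 18 higher and 4 lower, with a median of 0.51. Of the 14284 genes tested 7428 passed with that block, 4078 higher (28.5%) and 3350 lower.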
